A study of Mus musculus with 8 samples.

Results

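The imprinted Dlk1-Dio3 domain of mouse chromosome 12 carries one of the largest miRNA clusters of the genome, and its mature miRNAs were followed in small RNA libraries of NIH3T3 cells, a mouse fibroblast line. Members were all mature miRNAs whose listed start lies in a 300-kb window of chromosome 12 (mm10) around the cluster, each name taken once. This gave 115 of the 1966 mature names in the tables, from 60 hairpins, within chr12:109544588-109747949. The cells had been transfected with U6-Lin28aIR, U6-MosIR, CAG-EGFP-Lin28IR or CAG-EGFP-MosIR and harvested after 48 h, with 2 libraries per plasmid. All 4 plasmids express a long inverted repeat that folds into dsRNA. The repeat comes from Mos, which encodes a kinase of the oocyte, or from Lin28 sequence: Lin28a in U6-Lin28aIR, whereas the hairpin of CAG-EGFP-Lin28IR also holds a Lin28b segment. Lin28a and Lin28b encode RNA-binding proteins that block let-7 maturation. It is driven by the RNA polymerase III promoter U6 or, within an EGFP transcript, by the RNA polymerase II promoter CAG. Promoter and transcript layout, and for Lin28 also the repeat sequence, change together between these plasmids, and their effects cannot be told apart. Furthermore, no library of cells without a hairpin plasmid was analysed here. Per a figure legend of the study, the 2 libraries of a plasmid came from wells transfected separately.

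In the mouse, genes of this domain are expressed from 1 parental chromosome. The maternal chromosome gives the noncoding RNAs Meg3, Rian and Mirg and the miRNAs that lie in and between them, whereas Dlk1, Rtl1 and Dio3 are transcribed from the paternal one. The miRNAs are known from embryo, placenta and brain, where they are processed from long maternal transcripts. The group that lies antisense to Rtl1, with miR-127 and miR-136, is fully complementary to Rtl1 mRNA and can direct its cleavage. The largest group runs from miR-379 to miR-410 in placental mammals and ends within Mirg.

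The sequences of the 11 members with 10 or more counts are given because they hold most of the signal, together with miR-379-3p, which shares a seed with 1 of them, and miR-127-3p of the Rtl1-antisense group. They are the mature RNAs of RefSeq (GRCm38.p6), which lists 111 of the 115 members; capitals mark the seed, bases 2 to 8 from the 5′ end, through which a miRNA recognises its targets.
miR-379-5p: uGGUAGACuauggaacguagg
miR-541-5p: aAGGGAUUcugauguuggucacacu
miR-411-5p: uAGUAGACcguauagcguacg
miR-494-3p: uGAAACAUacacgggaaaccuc
miR-369-3p: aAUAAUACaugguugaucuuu
miR-382-5p: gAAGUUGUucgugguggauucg
miR-300-3p: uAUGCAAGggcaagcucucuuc
miR-409-3p: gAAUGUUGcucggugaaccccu
miR-136-3p: aUCAUCGUcucaaaugagucuu
miR-411-3p: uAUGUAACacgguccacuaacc
miR-134-5p: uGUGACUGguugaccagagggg
miR-379-3p: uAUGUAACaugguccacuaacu
miR-127-3p: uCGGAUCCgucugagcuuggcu

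The members were present only in traces. Among 117214649 perfectly mapped reads of the 8 libraries they gathered 427 counts, and 0 of the 115 reached a mean of 1 RPM (counts per 1000000 perfectly mapped reads), against 312 of the other 1851 names (16.9%). Of the members 41 (35.7%) had at least 1 count, against 978 of the other names (52.8%), and 74 members were at 0 in every library. A count of 0 over all libraries allows up to 0.0256 RPM (3 counts, counting error only), and a count of 0 in a single library allows 0.185 to 0.233 RPM. Of the counted members 10 had a single count, 20 had 2 to 9 counts and 11 had 10 or more. Only 4 members, miR-379-5p, miR-541-5p, miR-411-5p and miR-369-3p, were counted in all 8 libraries.

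The 11 counted most carried 11 different seeds. Over all members with a listed sequence there were 102 seeds, of which 9 were shared by 2 members each. One of these is AUGUAAC, carried by the 3p arms of the neighbouring hairpins miR-411 (11 counts) and miR-379 (6 counts). Another is GGUAGAC, carried by miR-379-5p with 81 counts and by miR-1193-5p with 0. Names outside the region held 12 of the 102 seeds, and for 2 seeds such a name reached 1 RPM. The larger of these was miR-362-3p at 41.9 RPM, which has the seed ACACACC of miR-329-3p, itself a member with 2 counts. The most counted members therefore had no partner with the same seed at 1 RPM or more.

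The counts were concentrated in the distal stretch. The 75 names from miR-379 to miR-410 span 34.7 kb and held 403 of the 427 counts (94.4%), with 33 names counted. The 18 names between the start of Meg3 and Rtl1 held 1 count, of miR-493-5p. The 13 names within Rtl1 held 18 counts, 13 of them from miR-136-3p, 4 from miR-127-3p and 1 from miR-127-5p. The 7 names from there to miR-379, which include miR-341 and miR-370 in Rian introns, held 4 counts, and the 2 beyond miR-410 held 1. Of a list of 35 well-known members 15 had no count in any library, among them miR-434-3p, miR-136-5p, miR-431-5p and miR-433-3p of the Rtl1 group, and miR-154-5p, miR-376a-3p and miR-323-3p of the distal stretch.

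**Figure D1:**
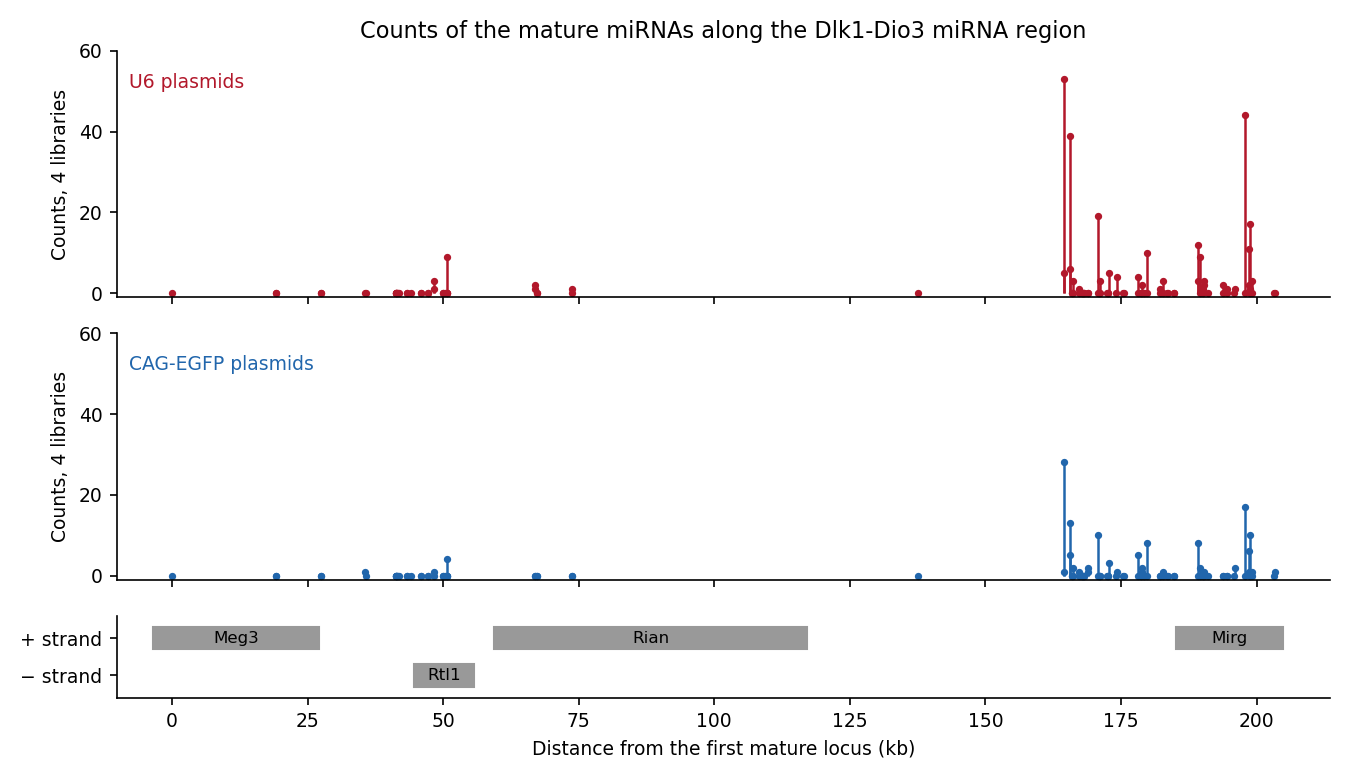
Total counts of each member in the 4 libraries with U6 plasmids (top) and the 4 with CAG-EGFP plasmids (middle) against its distance in kb from the first mature locus, with host genes on their strands (bottom; mm10, GENCODE M21). In both panels nearly all counts lie in the 34.7 kb from miR-379 to miR-410, with a small peak of miR-136-3p at Rtl1.

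The leading members at the near end of the distal stretch were miR-379-5p (chr12:109709065-109709085) and miR-411-5p (chr12:109710190-109710210), whose loci start 1.12 kb apart and lie in none of the annotated host genes. miR-541-5p (chr12:109742422-109742446), in an intron of Mirg on the same strand, starts 33.4 kb beyond miR-379-5p. These 3 members made up 45.4% of the counts and the top 10 made up 77.0%. By mean RPM over all libraries miR-379-5p ranked at place 329 of all 1966 names, miR-541-5p at 347 and miR-411-5p at 364.

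The counts fell on one strand and, in the hairpins with 10 or more counts, mainly on one arm. Of the members with a listed sequence, 105 match the plus strand and 6 the minus strand, and these 6 had 0 counts. For example, miR-3071-5p, which overlaps the bases of miR-136-3p on the opposite strand, had 0 where miR-136-3p had 13. Of the 31 hairpins with counts, 10 were counted on both arms, 4 on the 5p arm only and 17 on the 3p arm only. A hairpin with a single count can appear on the 5p or the 3p arm only, and with few counts either arm can be missed. The 5p arms held 240 counts (56.2%) and the 3p arms held 187. Of the 10 hairpins with 10 or more counts, 5 were mainly 5p and 5 mainly 3p. The 5p arm led in miR-379 (81 counts on 5p and 6 on 3p), miR-411 (52 and 11), miR-541 (61 and 0), miR-382 (20 and 3) and miR-134 (11 and 0). The 3p arm led in miR-494 (29 counts on 3p and 0 on 5p), miR-369 (27 and 2), miR-300 (18 and 0), miR-409 (17 and 3) and miR-136 (13 and 0). With U6 plasmids the 5p and 3p arms held 167 and 120 counts, and with CAG-EGFP plasmids 73 and 67.

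Reads with mismatches added little. With up to 2 mismatches the members had 433 counts, so 98.6% were perfect matches, and 39 of the 41 counted members had the same number under both settings. miR-541-5p had 64 counts in place of 61. The miR-376 hairpins are known as targets of A-to-I editing in mouse brain, which would appear as a mismatch. miR-376c-3p had 9 counts and miR-376b-3p had 4 with and without mismatches, and miR-376a-3p had 0 under both. At these counts only an edited share well above the counting error could have been seen.

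The summed level of the region was 2.07 times as high per mapped read with U6 plasmids as with CAG-EGFP plasmids. The members summed to 5.27 and 4.44 RPM with U6-Lin28aIR, to 5.18 and 4.83 RPM with U6-MosIR, to 2.2 and 2.32 RPM with CAG-EGFP-Lin28IR and to 2.40 and 2.58 RPM with CAG-EGFP-MosIR. These sums rest on 68 and 67 counts with U6-Lin28aIR, 84 and 68 with U6-MosIR, 31 and 37 with CAG-EGFP-Lin28IR and 34 and 38 with CAG-EGFP-MosIR. All 4 U6 libraries lay above all 4 CAG-EGFP libraries. The means were 4.93 ± 0.379 RPM with U6 and 2.38 ± 0.156 RPM with CAG-EGFP (SD, n = 4 each), a ratio of 2.07. The ratio of the pooled counts, 287 with U6 and 140 with CAG-EGFP, was also 2.07, with an exact 95% interval of 1.69 to 2.55 that covers counting error only. Within the Lin28 plasmids the ratio of means was 2.14, and within the Mos plasmids 2.01. The number of members counted was 18 to 24 per library with U6 and 13 to 16 with CAG-EGFP. The same number over all names was not computed, so this is not read as a trait of the region. Mature miRNAs as a whole made up 18.7 to 22.1% of perfectly mapped reads with U6 and 10.9 to 16.5% with CAG-EGFP.

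The share of all miRNAs in the libraries moved with this difference, and its part in it was not tested beyond a change of scale. Mature miRNAs made up 19.6% of perfectly mapped reads with U6 on average and 13.5% with CAG-EGFP, a ratio of 1.45. Scaled per 1000000 miRNA counts, the region had 28.1 and 20.1 with U6-Lin28aIR, 27.7 and 25.8 with U6-MosIR, 16.3 and 21.3 with CAG-EGFP-Lin28IR and 18.2 and 15.7 with CAG-EGFP-MosIR. On this scale the groups overlapped, because U6-Lin28aIR replicate 2 lay below CAG-EGFP-Lin28IR replicate 2. These libraries also had the highest and the lowest miRNA share, 22.1% and 10.9%. The means were 25.4 ± 3.71 with U6 and 17.9 ± 2.56 with CAG-EGFP (SD, n = 4 each), and the ratio was 1.42. It was 1.28 within the Lin28 plasmids, where the libraries overlapped, and 1.58 within the Mos plasmids, where they did not. In bulk RNA, fewer cells that make a miRNA and less of it per cell cannot be told apart. No test was run on these sums.

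**Figure D2:**
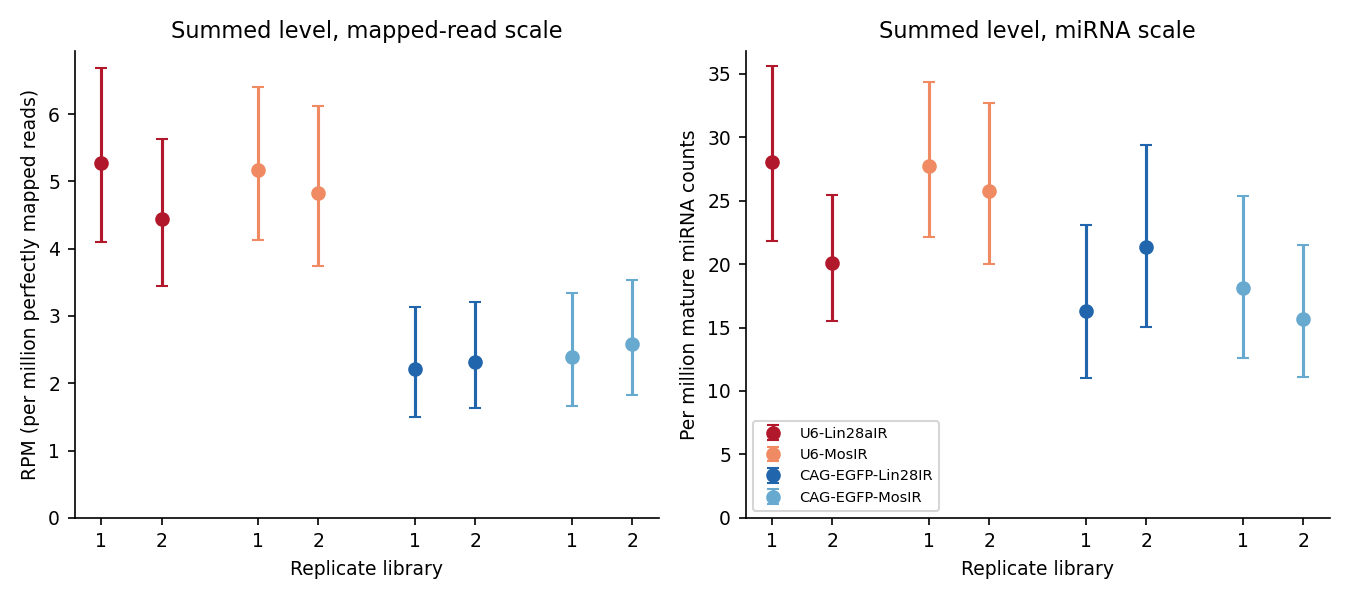
Summed level of the 115 members in each library, in RPM (left) and per 1000000 mature miRNA counts (right), with exact 95% Poisson intervals for counting error. The U6 libraries lie above all CAG-EGFP libraries on the left, at 4.44 to 5.27 against 2.2 to 2.58 RPM, and overlap with them on the right.

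The difference per mapped read was not carried by the 3 leading members alone. Without them the sums ranged over 2.28 to 2.98 RPM with U6 and over 1.27 to 1.57 RPM with CAG-EGFP, a ratio of means of 1.87. All 11 members with 10 or more counts had a higher mean RPM with U6. For miR-300-3p, however, edgeR with TMM and no filter on low counts gave a log2 fold change of -0.56 (adjusted p = 0.9998). That fit also averages the plasmids on the log scale, and 9 of the 10 U6 counts of miR-300-3p came from U6-MosIR replicate 2. The parts of scaling and averaging in this sign were not separated. Of the 41 counted members, 33 (80.5%) had a higher and 8 a lower mean RPM with U6. Among the other counted names, 73.4% had a higher mean RPM with U6. That share was not computed for other names with 10 or more counts alone. Of the 41, 25 were counted with both kinds of plasmid, 11 with U6 only (at most 3 counts each) and 5 with CAG-EGFP only (at most 2 counts each). The same split of the other names was not computed, so these numbers are not read as a trait of the region.

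miR-379-5p, the first miRNA of the distal stretch, was at 0.853 and 0.729 RPM with U6-Lin28aIR, 1.11 and 0.923 with U6-MosIR, 0.641 and 0.251 with CAG-EGFP-Lin28IR and 0.352 and 0.679 with CAG-EGFP-MosIR. Its means were 0.903 ± 0.159 RPM with U6 and 0.481 ± 0.211 RPM with CAG-EGFP (SD, n = 4 each). Every U6 library lay above every CAG-EGFP library, as was the case for 113 of the 360 miRNAs that entered the test (31.4%).
miR-541-5p was at 1.24 and 0.464 RPM with U6-Lin28aIR, 0.801 and 0.568 with U6-MosIR, 0.0712 and 0.188 with CAG-EGFP-Lin28IR and 0.493 and 0.407 with CAG-EGFP-MosIR. The groups overlapped, since the lowest U6 library, U6-Lin28aIR replicate 2, was below CAG-EGFP-MosIR replicate 1. Its means were 0.768 ± 0.345 RPM with U6 and 0.290 ± 0.194 RPM with CAG-EGFP (SD, n = 4 each).
miR-411-5p was at 0.775 and 0.265 RPM with U6-Lin28aIR, 0.986 and 0.639 with U6-MosIR, 0.142 and 0.314 with CAG-EGFP-Lin28IR and 0.282 and 0.136 with CAG-EGFP-MosIR. Its groups overlapped through the same U6-Lin28aIR library, while the other 3 U6 libraries were at 0.639 RPM or more. Its means were 0.666 ± 0.303 RPM with U6 and 0.218 ± 0.0926 RPM with CAG-EGFP (SD, n = 4 each).

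The other 8 members with 10 or more counts overlapped between the groups. miR-494-3p had 3, 5, 7 and 4 counts with U6 and 3, 0, 0 and 7 with CAG-EGFP, and miR-369-3p had 5, 6, 2 and 4 with U6 and 4, 2, 2 and 2 with CAG-EGFP. miR-300-3p rested on 1 library: 9 of its 18 counts came from U6-MosIR replicate 2, and the other U6 libraries had 0, 1 and 0. miR-134-5p, which in rat neurons limits dendritic spine size through Limk1, had 0, 4, 4 and 1 counts with U6 and 1, 0, 0 and 1 with CAG-EGFP. miR-136-3p had 3, 2, 0 and 4 counts with U6 and 0, 2, 1 and 1 with CAG-EGFP, and its Rtl1-antisense neighbour miR-127-3p had 3 in all with U6 and 1 with CAG-EGFP. None of these members passed the filter for the test.

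**Figure D3:**
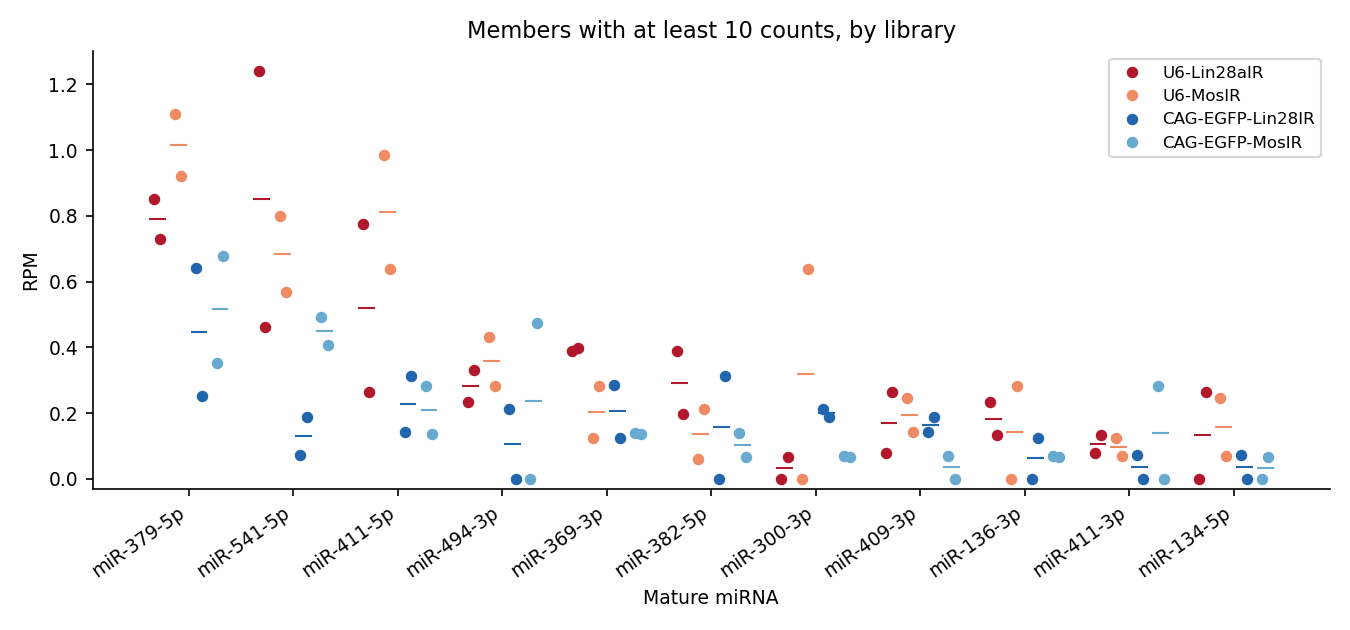
RPM of the 11 members with 10 or more counts in each library (points) with the mean of the 2 libraries of a plasmid (bars). miR-379-5p is the member whose 4 U6 libraries all lie above its 4 CAG-EGFP libraries, and the single high point of miR-300-3p is U6-MosIR replicate 2.

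With edgeR on counts scaled by TMM, which sets each miRNA against the other miRNAs, 3 of the 115 members passed the filter on low counts, and 0 of the 3 were called at an adjusted p under 0.05 between U6 and CAG-EGFP plasmids. Of all 360 miRNAs tested 0.556% were called. The 3 members passed the filter through U6 libraries only. Their highest CAG-EGFP libraries, at 0.679 RPM for miR-379-5p, 0.493 for miR-541-5p and 0.314 for miR-411-5p, fell short of the level it asks for. Their fold changes of U6 over CAG-EGFP therefore lean towards positive values by selection. The log2 fold change of U6 over CAG-EGFP was 0.43 for miR-379-5p (95% interval -0.53 to 1.38, adjusted p = 0.782), 1.12 for miR-541-5p (-0.18 to 2.41, adjusted p = 0.571) and 1.03 for miR-411-5p (-0.35 to 2.42, adjusted p = 0.632). The intervals include 0 and also changes of more than 1 log2 unit. Single libraries moved these values: leaving out each in turn gave 0.18 (without CAG-EGFP-Lin28IR replicate 2) to 0.75 (without CAG-EGFP-Lin28IR replicate 1) for miR-379-5p. For miR-541-5p the range was 0.63 (without U6-Lin28aIR replicate 1) to 1.57 (without CAG-EGFP-Lin28IR replicate 2), and for miR-411-5p 0.52 to 1.41 with the same libraries left out. None was called in any of these fits (edgeR, adjusted p under 0.05). The median over all 360 was 0.01. Likewise 0 of the 3 members were called between U6-Lin28aIR and CAG-EGFP-Lin28IR (0.556% of all tested) and between U6-MosIR and CAG-EGFP-MosIR (0% of all tested). In these 3 comparisons 0 of the 3 members had an unadjusted p under 0.05 with edgeR, and DESeq2 called 0. Without the filter, 30 of the 41 counted members had a positive log2 fold change with U6 and 11 a negative one. Their median was 0.67 against 0.07 over 1019 names, for which the share of positive changes was not computed. Called by edgeR were 0 of the 41, with 0 at an unadjusted p under 0.05. Of all 1019 names 4 were called, each lower with U6.

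Scaled by the deposited totals of mapped reads, the same fit called 1 of the 3 members higher with U6, miR-541-5p, against 50.6% of all miRNAs tested. Since all 3 members had passed the filter through U6 libraries only, this call is no support for a difference. The log2 fold changes were 0.90 for miR-379-5p (adjusted p = 0.115), 1.59 for miR-541-5p (adjusted p = 0.0362) and 1.51 for miR-411-5p (adjusted p = 0.0636), with a median of 0.50 over all 360. Between U6-Lin28aIR and CAG-EGFP-Lin28IR on this scale, the same member was called (log2 fold change 2.57, adjusted p = 0.0265), against 56.4% of all tested. Between U6-MosIR and CAG-EGFP-MosIR, 0 of the 3 members and 0% of all tested were called higher with edgeR (1 of the 3 members had an unadjusted p under 0.05), and miR-541-5p had a log2 fold change of 0.61 (adjusted p = 0.720). The difference between these changes of miR-541-5p, the interaction, was 1.96 (adjusted p = 0.430). The call of miR-541-5p for U6 over CAG-EGFP was lost when any of 6 of the 8 libraries was left out in turn. Without U6-Lin28aIR replicate 1 its log2 fold change was 1.17 (edgeR, adjusted p = 0.208), and in the other 5 cases it was 1.35 to 1.70 (adjusted p = 0.0511 to 0.117).

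**Figure D4:**
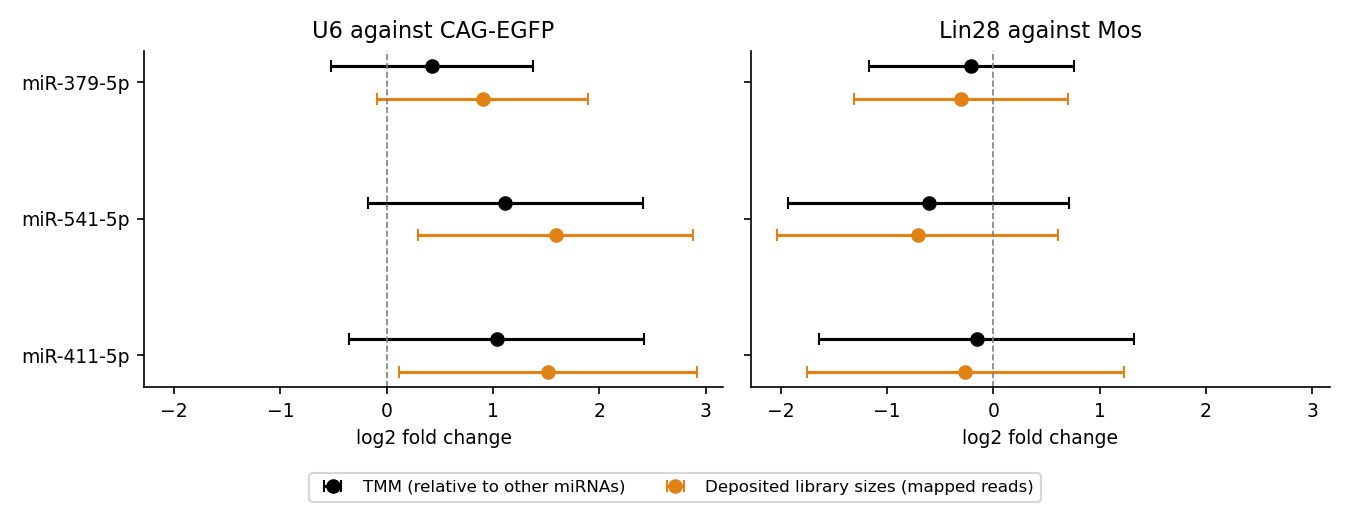
log2 fold changes with 95% intervals of the 3 members that passed the filter, from edgeR with TMM (black) and with the deposited totals (orange), for U6 over CAG-EGFP plasmids (left) and Lin28 over Mos plasmids (right). All intervals include 0 except those of miR-541-5p and miR-411-5p on the left with the deposited totals. The 3 members passed the filter through U6 libraries only.

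The summed level of the region differed little between Lin28 and Mos plasmids. The members summed to 3.56 ± 1.53 RPM with Lin28 and 3.74 ± 1.46 RPM with Mos plasmids (SD, n = 4 each), a ratio of 0.951. Each of these groups pools U6 and CAG-EGFP libraries, so the SD holds the difference between those plasmids. Within U6 the means were 4.85 ± 0.590 RPM with Lin28 and 5.00 ± 0.248 RPM with Mos (SD, n = 2 each), and the libraries overlapped. Within CAG-EGFP they were 2.27 ± 0.0816 and 2.49 ± 0.131 RPM (SD, n = 2 each), and both Mos libraries lay above both Lin28 libraries. The pooled counts were 203 with Lin28 and 224 with Mos, and their ratio per mapped read was 0.926 with an exact 95% interval of 0.762 to 1.12. Of the 11 members with 10 or more counts, 4 had a higher and 7 a lower mean RPM with Lin28. With edgeR and TMM, the log2 fold change of Lin28 over Mos was -0.21 for miR-379-5p, -0.61 for miR-541-5p and -0.16 for miR-411-5p (adjusted p = 0.991 for each). Called were 0 of the 3 members and 0% of all miRNAs tested, with 0 members at an unadjusted p under 0.05 and 0 by DESeq2. The difference between the U6 effects of the Lin28 and the Mos plasmids, the interaction, also gave 0 of 3 members and 0% of all tested, with 0 members at an unadjusted p under 0.05 and 0 by DESeq2. Its intervals were wide, for miR-541-5p -1.15 to 4.13.

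Values of other miRNAs set these levels in context. The fibroblast and mesenchyme list, with miR-21a-5p and miR-199a-3p, was counted in full (8 of 8) and summed to 69511 to 84017 RPM with U6 and 35747 to 56906 RPM with CAG-EGFP. Some miRNAs known from other tissues stood at the level of the leading members. The liver miRNA miR-122-5p averaged 0.318 RPM with U6 and 0.519 RPM with CAG-EGFP, and the neuronal miR-124-3p averaged 0.649 RPM with U6 and 0.408 RPM with CAG-EGFP. The epithelium list, with miR-200c-3p, was counted in full (3 of 3) and summed to 0.388 to 1.13 RPM with U6 and 0.251 to 1.34 RPM with CAG-EGFP. The muscle list, with miR-206-3p, had 3 of 4 counted and summed to 0.662 to 1.77 RPM with U6 and 0.211 to 1.09 RPM with CAG-EGFP. The blood list had 4 of 4 counted, at 0 to 0.233 RPM with U6 and 0.0628 to 0.475 RPM with CAG-EGFP, and the embryonic stem cell list 1 of 5, with a single count. The neuron list (4 of 4) reached 239 to 282 RPM with U6 and 144 to 209 with CAG-EGFP, nearly all of it miR-9-5p and miR-128-3p. The source of the traces was not tested. Of 10 mature miRNAs from other imprinted loci, 2 were counted, miR-296-3p and miR-298-5p, with 1 count each. The cluster in an intron of Sfmbt2, which is imprinted in the mouse placenta, had 42 of 70 names counted and summed to 5.83 to 11.6 RPM with U6 and 1.26 to 5.41 RPM with CAG-EGFP, a ratio of means of 1.98.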

How the data were processed

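The authors sequenced small RNA of 8 libraries, mapped the reads to mm10 (STAR 2.5.3a, per the submitters' processing notes) and deposited raw counts per mature miRNA locus with 0, 1 or 2 mismatches, and mapped reads per library (12898619 to 16228597 without mismatches). The rule that assigned reads to loci was not given in the sources used here. From these counts, RPM was computed over perfectly mapped reads. Names with several loci took the locus with the highest total. Plasmids were compared in R 4.3.3 by the quasi-likelihood test of edgeR 4.0.16 (robust, TMM, filterByExpr, 4 plasmid means in one fit, Benjamini-Hochberg over all 360 miRNAs that passed, threshold 0.05). Alternatives were DESeq2 1.42.0, the deposited totals, other filters, mismatches, summed loci, a replicate block and leaving out each library. Leaving out libraries with the deposited totals, for miR-541-5p, was added after the data were seen. The members and lists were chosen with earlier results of these data known. Members were named by abundance, by stretch, by arm and from a list of well-known members; a few others, such as miR-3071-5p, miR-1193-5p and miR-127-5p, were named after their values were seen. The intervals of the summed levels and pooled counts, and the floors, cover counting error only, since reads are not independent molecules. The intervals of the edgeR fold changes also take in the spread between libraries, as estimated by the fit. Over 280 to 304 names per plasmid, most of them outside the region, duplicates differed beyond counting error. This was not computed for the members alone.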

Additional observations from a re-analysis of the deposited data

Results flagged for a closer look

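Each of 28 groups of 4 libraries, for the summed levels and the 11 members with 10 or more counts, was searched for a library far from the other 3. The cut-off is one that about 1 in 20 groups of continuous, normally spread values would pass by chance, and 2 groups passed it. That rate does not hold for low counts with ties, as in the members here. miR-300-3p was at 0.639 RPM in U6-MosIR replicate 2, against 0 to 0.0662 RPM in the other U6 libraries. miR-369-3p was at 0.285 RPM in CAG-EGFP-Lin28IR replicate 1, against 0.126 to 0.141 RPM in the other CAG-EGFP libraries. This is 4 counts against 2 in each of the others.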

How the results depend on the processing

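With the deposited library sizes in place of TMM, 1 member was called between U6 and CAG-EGFP and 1 between U6-Lin28aIR and CAG-EGFP-Lin28IR, miR-541-5p in both, and 0 between U6-MosIR and CAG-EGFP-MosIR, where TMM gave 0 in each. That scaling shifted the median of all tested miRNAs for U6 over CAG-EGFP (log2) to 0.50, against 0.01 with TMM. The summed level of U6 over CAG-EGFP was 1.42 with all miRNA counts as the library size and 1.80 with 18–30-nt reads, against 2.07, and 2.03 to 2.14 when each library was left out. With each library left out, the log2 fold changes of U6 over CAG-EGFP stayed positive for the 3 members (0.18 to 0.75 for miR-379-5p, 0.63 to 1.57 for miR-541-5p, 0.52 to 1.41 for miR-411-5p). Because these 3 passed the filter through U6 libraries only, neither that sign nor the call of miR-541-5p is independent of the selection. Those of Lin28 over Mos changed sign for miR-411-5p (-0.67 to 0.20) and miR-379-5p (-0.53 to 0.047) when single libraries were left out. For miR-541-5p they stayed negative (-1.09 to -0.27). Libraries with the same replicate number showed no shared shift (correlations of deviations between -0.14 and 0.11 over 6 pairs), which cannot exclude that they were paired. With the replicate block 0 members were called in any comparison, as without it. A minimum mean of 10 RPM left 0 members to test. The fold changes compared across the alternatives are those of the 3 members that passed the filter; without the filter, the direction of U6 over CAG-EGFP was the same for these 3. Depth limits all of this: most members are known only as below 0.0256 RPM.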
